A study of Drosophila melanogaster with 2 samples.

Results

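Long topologically associating domains (TADs) that face each other across a stretch of short TADs were examined in the Hi-C map of Kc167 cells, a cultured line derived from Drosophila melanogaster embryos. The members were chosen by length alone from the segments that the HiCseg program had drawn on the normalised map. On each of the 5 large arms (2L, 2R, 3L, 3R, X), taken from end to end, each pair of TADs of at least 100 kb was taken when only TADs of under 60 kb, with no unsegmented gap, lay between them. This gave 114 pairs out of 406 pairs of consecutive long TADs. Of the rest, 97 pairs adjoined each other directly, 40 stood around 1 TAD of 60 to 90 kb, 131 had several TADs between them with at least 1 of 60 to 90 kb, and 24 were parted by an unsegmented gap. The stretch of short TADs between a pair is called a run here. The lengths that picked the members come from the same map as the interactions measured below, so all values are given as a description of that map, with no test.

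Hi-C ligates DNA fragments held near each other by fixation, and a sequenced ligation product is a di-tag. A TAD is a stretch of chromosome whose pieces meet each other more than they meet their neighbours, and in flies the TAD pattern follows the alternation of active, gene-dense chromatin and inactive chromatin. Chromatin of like state can also meet over the heads of the domains between, which shows as patches away from the diagonal of a map.

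The series has 1 group, untreated Kc167 cells in 2 replicates digested with DpnII, a restriction enzyme that recognises a site of 4 bases, hence its frequent cuts. The authors combined the replicates before deposition, so the map counts as 1 sample and no value has a spread between replicates. The raw map holds 34287983 di-tags in bins of 10 kb, of which 12.1% join different arms or scaffolds. Interaction is given throughout as observed over expected, the normalised signal of a pair of bins over the mean of the arm at equal distance, so that 1 is the arm mean.

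The members occupied all large arms, with 26 pairs on 2L, 12 on 2R, 22 on 3L, 23 on 3R and 31 on X. They drew on 196 long TADs, of which 32 flanked a run on both sides and so belonged to 2 pairs. These long TADs had a median length of 150 kb, the same as all 411 long TADs of the arms. The runs held 174 short TADs, 38 of 20 kb, 46 of 30 kb, 39 of 40 kb and 51 of 50 kb. Most runs were a single short TAD: 80 pairs had 1, 20 had 2, 5 had 3, 6 had 4 and 3 had 5. The runs were 20 to 200 kb long, with a median of 40 kb, and covered 6.25 Mb, or 5.31% of the segmented arms.

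Averaged over the distances of each pair, long TADs across a run met each other at about the arm mean, and less often than long TADs that share a boundary. That average joins values below 1 at shorter distances with values above 1 at the longest, as the bands of distance below show. The mean interaction of the long-long rectangle had a median of 0.957 over the 114 pairs, with quartiles at 0.645 and 1.44 and a range of 0.179 to 3.24. The adjoining long TADs had a median of 1.18 over 97 pairs, with quartiles at 0.944 and 1.47. The 2 sets of pairs overlapped over most of their range. The median across a run lay on the other side of 1 with expected values from bin pairs in different TADs (1.09) or without bins of low total (1.02), so its place just under the arm mean is not firm.

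Since interaction relative to the arm mean climbed with distance in every kind of rectangle between TADs, the pairs were also set against adjoining long TADs bin pair by bin pair at equal distance. On that scale the long-long interaction had a median of 0.598 times that of the adjoining long TADs, with quartiles at 0.443 and 0.921. Adjoining long TADs are a high reference, being weakly parted. Their interaction was lower than within both TADs in 36 of 97 pairs, against 83.4% of adjoining TADs of any length. The long-long interaction across a run was above the adjoining mean in 21 of 114 pairs (18.4%, 95% Wilson interval 12.4 to 26.5%). Of the adjoining pairs themselves 46.4% were above it, but they were set against their own mean and are no separate background. Over 1889 comparisons of TADs of any length, the TAD across 1 other was met more than the TAD beside on the opposite side in 30.1%. The median ratio there was 0.738 at equal distance, so TADs in general also met less across another TAD. Poisson intervals in this text cover the counting error of di-tags only. Wilson intervals treat the pairs as independent draws. The pairs come from 1 map and neighbouring pairs can share a long TAD, so they are not independent and are no replicates.

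**Figure D1:**
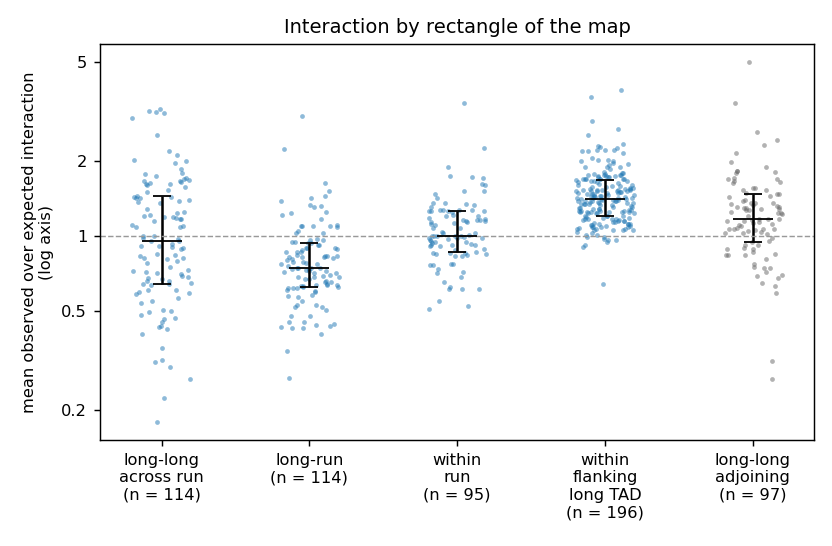
Mean observed over expected interaction (log axis) of each rectangle of the map, 1 point per rectangle, for long TADs across a run, long TADs with the run, the interior of runs of at least 30 kb, the interior of the flanking long TADs and, in grey, adjoining long TADs. Bars mark the median and quartiles. Long-long values across a run spread from 0.179 to 3.24 around a median of 0.957, below the median of 1.18 of adjoining long TADs.

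The difference was present in each band of distance. At 50 to 100 kb the median was 0.636 across a run and 0.859 between adjoining long TADs. At 160 to 200 kb it was 0.788 across a run and 1.24 between adjoining long TADs, and at 310 to 400 kb the same medians were 1.32 and 1.78. Both kinds of pair therefore met more than the arm mean at the longest of these distances and less at the shortest. The arm mean at short distance contains bin pairs of 1 TAD, and how far this lowers values between TADs there was not tested. The bands rest on different pairs, with n = 94 across a run and 97 adjoining at 50 to 100 kb. At 310 to 400 kb these were 82 and 44.

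**Figure D2:**
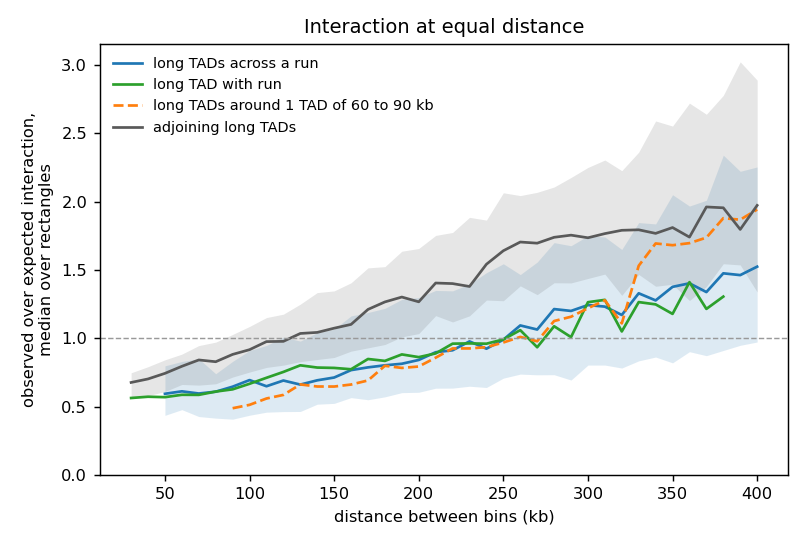
Median observed over expected interaction (vertical axis, linear) at each distance between bins (horizontal axis, kb) for long TADs across a run, long TADs with the run, long TADs around 1 TAD of 60 to 90 kb and adjoining long TADs, with shaded quartiles for the first and the last. The curve of long TADs across a run lies below that of adjoining long TADs at all distances drawn, for example at a median of 0.636 against 0.859 over 50 to 100 kb.

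Set against TADs of any length, in contrast, the long pairs stood high. Their interaction was above 1 in 53 of 114 pairs (46.5%, Wilson interval 37.6 to 55.6%). Over all 2691 pairs of TADs with 20 to 200 kb between them the share above 1 was 16.5% and the median was 0.576. These pairs hold TADs of all lengths and so cover shorter distances, where values between TADs are lower, and how much of the gap this accounts for was not tested.

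Long TADs and the run between them met less often than the arm mean. The long-run interaction had a median of 0.743, with quartiles at 0.626 and 0.937, and was above 1 in 23 of 114 pairs (20.2%, Wilson interval 13.8 to 28.5%). Of all 1272 adjoining TADs of any length, 23.7% were above 1, with a median of 0.753. These values are close to those of long TADs and runs, but they are not matched for distance, with which values between TADs climbed. Whether a long TAD and its run met as often as neighbours of any length at equal distance was not tested. At equal distance the long-run interaction was 0.734 times that between adjoining long TADs, with quartiles at 0.605 and 0.894.

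The question of whether long TADs favoured each other over the short TADs between them was addressed at the distances that both rectangles hold, 10 to 61 distances per pair. The median ratio of long-long to long-run interaction was 0.921, with quartiles at 0.748 and 1.17 and a range of 0.232 to 1.95. The long TADs met each other more than they met the run in 48 of 114 pairs (42.1%, Wilson interval 33.4 to 51.3%). In all 1244 triplets of successive TADs of any length, the first and the third met more than they met the second in 29.1%, and the median ratio was 0.792. The share in the long pairs was above that of these triplets, which differ from them in TAD length and distance. For long TADs around 1 TAD of 60 to 90 kb it was 13 of 40, with a median ratio of 0.839. In 66 of the 114 long pairs the run was still met more often than the long TAD beyond it. Without the outermost bin of each TAD the median ratio was 1.01, so neither partner was clearly the stronger. The long-long and long-run values went together over the pairs (Spearman's rho 0.74, Pearson's r 0.76, 114 pairs on 1 map, which share bins and long TADs).

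Inside the domains the values were higher. The flanking long TADs had a median interaction of 1.42 between their own bins (quartiles 1.20 and 1.69, n = 196), against 1.38 for all 411 long TADs and 1.20 for the 172 long TADs of adjoining pairs. Long-run interaction was lower than that within both flanking long TADs in 106 of 114 pairs. Over 1271 adjoining TADs of any length this held in 83.4%. Long-long interaction was lower than that within both long TADs in 76 of 114 pairs, against 87.7% of 2690 pairs of TADs of any length with 20 to 200 kb between them. It was higher than that within both in 17 of 114, for which no share over TADs of any length was counted. Bin pairs within TADs lie at shorter distances than those between TADs, so these counts are not matched for distance. Among adjoining long TADs the interaction was lower than within both TADs in 36 of 97 pairs.

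The averaged map of all pairs, drawn on scaled axes, showed the same layout. Interaction was high within each long TAD and low where a long TAD met the run, and between the long TADs it was low next to the run and higher towards the outer ends. In the 50 kb square nearest the run the long-long interaction had a median of 0.605, and in the 50 kb square furthest from it 1.22. The near square exceeded the far square in 4 of 114 pairs. Adjoining long TADs had the same order, with medians of 0.757 next to the boundary and 1.64 furthest from it, and the near square was the higher in 7.22% of them, so both kinds of pair had this slope.

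**Figure D3:**
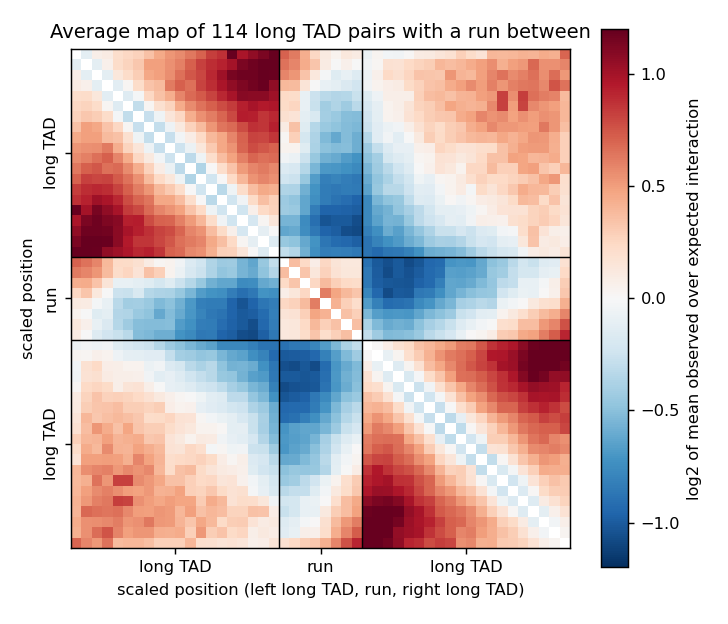
Average of the 114 maps with each left long TAD, run and right long TAD stretched to a common width. Colour is the log2 of mean observed over expected interaction, red above and blue below the arm mean, and black lines mark the edges of the run. The rectangles of long TAD with run are blue, with a median long-run interaction of 0.743, and the far corner between the long TADs is red, where the furthest 50 kb squares had a median of 1.22.

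The long-long interaction was lower across the longest runs. Runs of up to 50 kb (n = 83) had a median long-long interaction of 0.959, runs of 60 to 100 kb (n = 20) 1.22 and runs of over 100 kb (n = 11) 0.635. At equal distance these were 0.641, 0.705 and 0.235 times the values of adjoining long TADs. That reference is a mean over all their bin pairs, so larger TADs weigh more. The adjoining pair with most bin pairs, 1560, lay at the centromeric end of 3L and had 5.01. With adjoining pairs weighted equally the median ratio over all 114 pairs was 0.616 instead of 0.598, and the classes were not tested this way. By medians at 310 to 400 kb, the longest runs had 0.644 and adjoining long TADs 1.78. Only 1 of the 11 pairs across the longest runs was above 1, and none of them was above the adjoining mean. The 11 longest runs were 120 to 200 kb long and held 3 to 5 short TADs each. Several of them, with the longest run among them, had a flanking long TAD of 100 to 120 kb. Pairs with such a flank were low as a class, with a median of 0.703 (n = 51). Whether the length of the flanks had a part in the low values was not tested. Low values were not limited to the longest runs, as the lowest pairs named below include single short TADs.

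The low values of the longest runs were also present within bands of distance. At 160 to 200 kb the median interaction was 0.862 across runs of up to 50 kb, 0.783 across runs of 60 to 100 kb and 0.375 across runs of over 100 kb (n = 9). At 210 to 300 kb it was 1.07, 1.08 and 0.446 in the same order, and at 310 to 400 kb 1.45, 1.44 and 0.644. Of the 11 pairs across the longest runs, none was above 1 at 210 to 300 kb and 3 were at 310 to 400 kb. The short and middle classes had no steady order between them, since at 110 to 150 kb the medians were 0.721 across runs of up to 50 kb and 0.566 across runs of 60 to 100 kb. The long-run values were lower there too, with medians of 0.789, 0.778 and 0.477 over the 3 classes, so that the ratio of long-long to long-run stayed at 0.921, 0.929 and 0.945. Over all pairs, Spearman's rho of run length was -0.18 with the long-long interaction and -0.39 with its ratio to adjoining long TADs (Pearson's r -0.26 and -0.42, 114 pairs on 1 map).

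**Figure D4:**
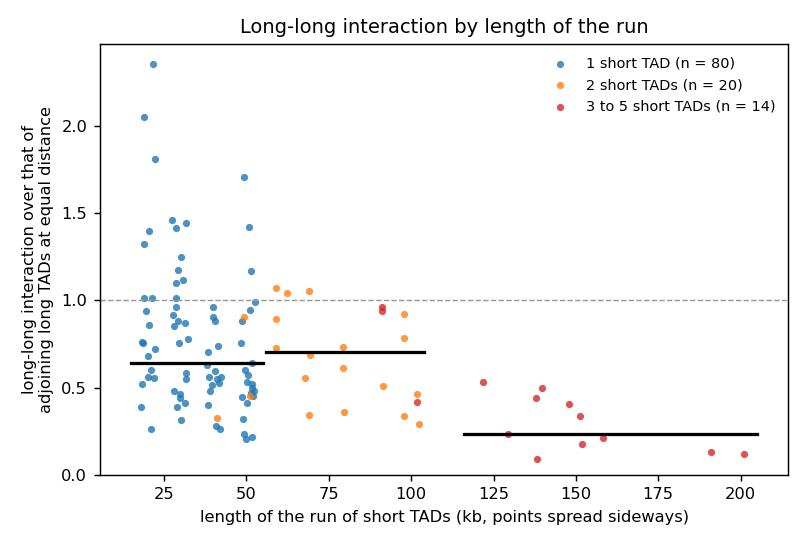
Long-long interaction as a ratio to adjoining long TADs at equal distance (vertical axis, linear) against the length of the run (horizontal axis, kb, points spread sideways), 1 point per pair, coloured by the number of short TADs in the run. Black lines are the medians of runs of up to 50 kb (0.641), 60 to 100 kb (0.705) and over 100 kb (0.235), and no pair across a run of over 100 kb reaches 1.

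Counted by short TADs, 1 short TAD between the long TADs gave a median of 0.972 (n = 80), 2 gave 1.19 (n = 20) and 3 or more gave 0.663 (n = 14). The ratios to adjoining long TADs were 0.661, 0.648 and 0.372. By length, runs of 20, 30, 40 and 50 kb gave ratios of 0.763, 0.869, 0.559 and 0.527 (n = 19, 23, 17 and 24). The length of the long TADs moved the other way: where the shorter of the pair was 100 to 120 kb the median long-long interaction was 0.703 (n = 51), at 130 to 170 kb it was 1.19 (n = 44) and over 170 kb it was 1.21 (n = 19). Larger TADs also place their bins further apart, and the ratios at equal distance were 0.518, 0.784 and 0.641, so the last class was not the highest on that scale.

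Just inside and just outside the thresholds of the rule, the quartiles of the values overlapped. Pairs whose longest TAD between was 50 kb, just inside, had a median of 0.810 (n = 40), and those with 60 kb, just outside, had 0.787 (n = 40). Their ratios to adjoining long TADs were 0.499 and 0.418, with 3 and 0 pairs above the adjoining mean. The stretches between spanned 50 to 200 kb inside and 60 to 320 kb outside. Pairs whose shorter long TAD was 100 kb had 0.606 (n = 21), and those with 90 kb had 0.731 (n = 32). Their ratios were 0.479 and 0.580. Where 1 TAD of 60 to 90 kb stood between the long TADs, their interaction had a median of 0.902 and a ratio to adjoining long TADs of 0.588 (n = 40), beside 0.972 and 0.661 for 1 short TAD (n = 80).

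By arm, the median long-long interaction was 0.840 on 2L, 0.796 on 2R, 0.930 on 3L, 1.25 on 3R and 1.00 on X. The quartiles of the arms overlapped, from 0.594 to 0.737 for the lower and from 1.18 to 1.70 for the upper. The distance to the end of the arm nearest the centromere had no ordered relation with the long-long interaction (Spearman's rho 0.02, Pearson's r -0.07, 114 pairs).

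The pairs at the ends of the range are given with their raw ratio, the di-tags observed over those expected from the raw counts at equal distance (which weights near bin pairs more than the mean of ratios does), and its exact 95% Poisson interval in parentheses. All coordinates are of release 5. The highest interaction was on 3L between 23530001-23680000 and 23730001-24130000, at 3.24, but its raw ratio was 0.209 (0.199 to 0.220, 1538 di-tags). The pair on 2R, 650001-1000000 with 1030001-1260000, at 3.14, had a raw ratio of 0.576 (0.562 to 0.591). Their middles lie 0.700 and 0.955 Mb from the centromeric end of the map of their arm. On raw counts both were below the arm mean.

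On 2L the pair 17500001-18120000 and 18160001-18440000 had 3.19, with a raw ratio of 1.18 (1.17 to 1.20, 17855 di-tags). It holds the longest of all long TADs, 620 kb, and its bin pairs had a median distance of 490 kb. At equal distance it was 0.880 times the adjoining long TADs, over the 1218 of its 1736 bin pairs that had such a reference. On 2L again, 4460001-4650000 and 4670001-4810000, with a run of 20 kb, had 3.15 and a raw ratio of 1.56 (1.54 to 1.59, 12000 di-tags). This pair was 2.36 times the adjoining long TADs at equal distance, the top of that range, and it was above the interaction within its own long TADs, 1.57 and 1.46 at shorter distances.

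A pair on 3R had a high long-long value on both scales: 1690001-2000000 and 2020001-2160000 met across a run of 20 kb with 2.99 and a raw ratio of 2.49 (2.46 to 2.52, 24292 di-tags, the most of any pair). Its long TADs had 1.48 and 1.09 within themselves, at shorter distances than those between them. Their interaction with the run was 1.34 on the normalised map and 0.757 on raw counts. The next on 3R, 17870001-18050000 and 18070001-18180000, again across 20 kb, had 2.56 and a raw ratio of 2.08 (2.04 to 2.11), against 0.948 with the run (0.633 on raw counts). Its ratio of long-long to long-run interaction at equal distance, 1.95, was the highest of all pairs.

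The other high ratios of long-long to long-run interaction were on 3R, 27290001-27400000 and 27450001-27570000, at 1.73, and on X, 14980001-15190000 and 15240001-15340000, at 1.61. The X pair had a long-long interaction of 1.67 and a raw ratio of 1.66 (1.63 to 1.70, 7345 di-tags), and each of its long TADs met the run with 0.754 and 0.719. The pair on 3R had 2.12 long-long and a raw ratio of 1.04 (1.01 to 1.07).

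The lowest interaction was on X between 13020001-13160000 and 13300001-13500000, at 0.179, with a raw ratio of 0.147 (0.134 to 0.161, 451 di-tags). A run of 140 kb with 4 short TADs lay between them. Its left long TAD also closes the pair before it on the arm, 12660001-12980000 with 13020001-13160000, which had the lowest ratio of long-long to long-run of all, 0.232. There the run, a single TAD of 40 kb, had 3.44 within itself and 1.64 with the left long TAD, while the long TADs met with 0.499. On raw counts this pair had 0.294 long-long (0.282 to 0.307) and 0.243 long-run, so its run was met above the arm mean on the normalised map and below it on raw counts.

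The longest run, 200 kb with 4 short TADs, was on X between 15490001-15590000 and 15790001-15900000, which met with 0.224 and a raw ratio of 0.393 (0.358 to 0.431, 458 di-tags). The other low pairs were on 2L at 19430001-19530000 and 19580001-19730000 with 0.268, on 3L at 1200001-1300000 and 1350001-1490000 with 0.297, and on X at 6640001-6740000 and 6780001-6910000 with 0.313. These 3 had single short TADs of 40 or 50 kb between them, and their raw ratios were 0.365, 0.460 and 0.388. In the X pair the run met the left long TAD with 0.343 and the right one with 0.804 on the normalised map, or 0.604 for both together, while the raw long-run ratio was 1.51, the highest of all pairs.

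The remaining low ratio of long-long to long-run, 0.359, belonged to 3R, 19050001-19160000 and 19180001-19500000. The left of these long TADs had 0.642 within itself, the lowest of all 411 long TADs. The 3 runs with most short TADs, 5 each, were on 2L, 2R and 3L. The long TADs around them met with 0.730 (2L, 1990001-2100000 and 2240001-2360000), 0.317 (2R, 9440001-9690000 and 9880001-9980000) and 0.354 (3L, 9130001-9350000 and 9500001-9610000). All 3 were below the median of the pairs, and the member at that median, on 2L with 7070001-7180000 and 7220001-7410000, had 0.959 and a raw ratio of 1.02 (0.990 to 1.04, 5645 di-tags).

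The normalised value was more than 2 times the raw ratio in 11 of 114 pairs, and the 2 scales fell on different sides of 1 in 16. The median of normalised over raw was 1.08, with quartiles at 0.875 and 1.37. The long-long rectangles held 451 to 24292 di-tags, with a median of 4996.5, so the counting error of single rectangles was small beside the spread between pairs.

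Runs faced their flanks unevenly. Taking the long TADs to the left and right of the same run at equal distance, the stronger side was 1.21 times the weaker in the median and up to 2.65 times. It was over 1.5 times in 22 of 114 runs and over 2 times in 5, and the left side was the stronger in 58. In 26% of 1244 triplets of TADs of any length the second TAD met 1 side over 1.5 times more than the other, so runs were not more uneven than that background.

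In runs of several short TADs, the outermost short TADs were compared with both long TADs. The outermost short TAD of such a run had a median of 0.424 with the long TAD across the run and 0.950 with the long TAD beside it, at equal distance and over 64 such TADs. The median ratio of far to near was 0.422, with quartiles at 0.288 and 0.660, and 5 of the 64 ratios rest on 3 or fewer distances. Far was above near in 8 of 64. Over 1889 comparisons of TADs of any length with the TAD across 1 other and the TAD beside them on the opposite side, this held in 30.1%, with a median of 0.738. Runs of 3 to 5 short TADs have more TADs in between than that. Neighbouring short TADs of a run met with a median of 0.667 (n = 60), and single short TADs had 1.20 within themselves (n = 136). Whole runs of at least 30 kb had a median of 1.01 between their own bins (n = 95), which is lower than within long TADs.

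The depth of boundaries was measured on the same map on which they had been drawn, so it is no separate support. The log2 ratio of interaction across a boundary to that on either side of it, in squares of 50 kb, had a median of -0.80 at the edges of runs (n = 228) and -1.01 at the boundaries inside runs (n = 60). It was -0.24 at boundaries between adjoining long TADs (n = 97) and -0.83 over all 1272 boundaries. The edges of runs were thus as deep as the typical boundary of the map, and boundaries between adjoining long TADs were shallow. A square of 50 kb reaches past a short TAD into the next, so these values mix neighbouring boundaries in runs.

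Bins of the runs met nearby loci more, relative to distant ones, than bins of the long TADs. The ratio of their interaction at 10 to 50 kb to that at 60 to 500 kb had a median of 1.23 in 625 run bins and 0.788 in 3482 bins of the flanking long TADs, with 1.14 in the rest of the arms. Of the run bins, 88.5% were above the median of the long TADs, and of all bins of the arms 67.4%. No interval is given, since neighbouring bins of a run are not independent. The order was the same on each arm, from 1.19 in runs and 0.797 in long TADs on 3R to 1.36 in runs and 0.813 in long TADs on 2R. Short TADs were picked for being short on this same map, so a lower reach of their interactions is close to what the rule used.

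Run bins also sent a larger share of their di-tags to other arms or scaffolds, with a median of 13.3% (quartiles 11.9 and 14.9%), against 11.0% (9.56 and 12.6%) in bins of the flanking long TADs and 11.9% in the rest. Their total of di-tags had a median of 1.02 times that of the arm in runs and 0.954 times in the long TADs. Sparse bins, those below 0.25 times the arm's median total, made up 1.76% of run bins and 2.55% of bins of the long TADs. The part of these differences in the interaction values was not tested.

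Where a long TAD had runs on both sides, the runs could be set against each other across it. There were 32 such places, 11 of them on X. The run-run interaction had a median of 1.19, with quartiles at 0.906 and 1.48, and was above 1 in 23. Of 2691 pairs of TADs of any length with 20 to 200 kb between them, 16.5% were above 1. Adjoining long TADs were above 1 in 76 of 90 pairs at 210 to 300 kb. None of these counts is matched for distance, with which values between TADs climbed. The runs met the long TAD between them with a median of 0.735, at shorter distances. At equal distance the run-run interaction was 0.922 and that of each run with the long TAD further out was 0.867, and the median ratio for single places was 1.15, with quartiles at 0.971 and 1.39. The run-run value was the higher in 23 of 32. Over 1190 sets of 5 successive TADs of any length, the second and the fourth met more than they met the outer TADs in 70.3%, with a median ratio of 1.21, so the preference of runs for runs was of the size seen for TADs in general.

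**Figure D5:**
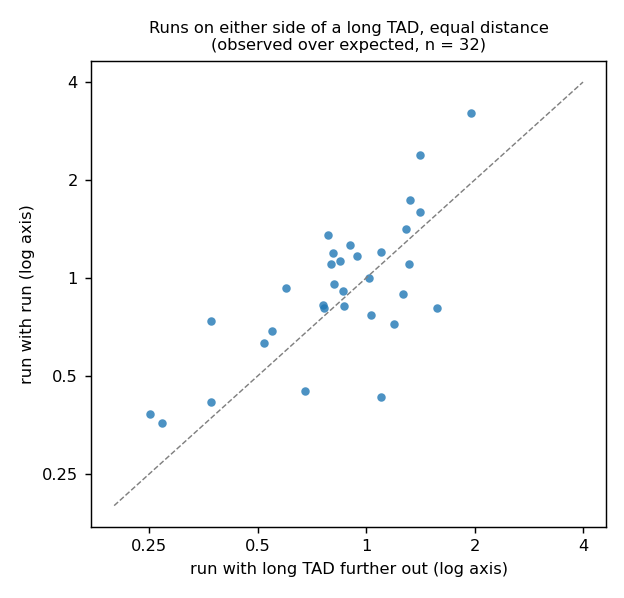
Interaction of runs on either side of a long TAD with each other (vertical axis) and with the long TAD further out (horizontal axis) at equal distance, as observed over expected on log axes, 1 point for each of 32 places. The dashed line marks equal values. Points above it, 23 of 32, are places where the runs met each other more than the long TAD beyond.

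The 4 places with the highest run-run interaction, not matched for distance, are given with their raw ratio. On 2R the runs 18950001-18970000 and 19240001-19290000, 270 kb apart across a single long TAD, met with 3.65 and a raw ratio of 5.08 (4.63 to 5.56, 467 di-tags). On 3R the runs 6680001-6720000 and 7020001-7070000 had 3.32 and a raw ratio of 3.53 (3.26 to 3.80). On X the runs 15190001-15240000 and 15340001-15380000 had 2.13, and 7180001-7220000 with 7570001-7630000 had 2.09. In all 4 the runs met the long TAD between them with less than 1, at shorter distances. At equal distance the ratio to the long TAD further out was 1.65 on 2R, 1.68 on 3R, and 1.34 and 1.31 on X, the last 2 below the upper quartile of the 32 places. These 4 were picked on their values.

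The first and the third long TADs of such a place, with 2 runs and a long TAD between them, met with a median of 0.955, with quartiles at 0.744 and 1.50, and 14 of 32 were above 1. Adjoining long TADs were above 1 in 41 of 44 pairs at 310 to 400 kb, not matched for distance. Across 1 run the median was 0.957, at shorter distances. With bin pairs of up to 300 kb alone, the medians were 0.543 for the first with the third long TAD (n = 19) and 0.848 across 1 run. The run-run rectangles held 42 to 3058 di-tags, with a median of 499, and are less precise than those of the long pairs.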

How the data were processed

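The authors ran HiCUP on the reads of 2 Kc167 replicates with release 5 as the genome (with Bowtie2 2.2.6 in the submitters' processing notes), combined the replicates and used bins of 10 kb. The deposited raw count gives di-tags for each pair of bins. The deposited normalised signal was made by the authors with GOTHiC. The deposited segments, whose coordinates are given in bp, were found by the authors with HiCseg on the normalised map, with the weakest borders removed.

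The expected value is the mean normalised signal of the arm at equal distance over bins that hold di-tags, and bin pairs with no di-tag count as 0. Ratios at equal distance use the distances that both rectangles hold, with at least 20 bin pairs per distance for adjoining long TADs. Rectangle values are means over bin pairs, and values over pairs of TADs are medians. Analyses used Python 3.11.15, numpy 2.4.6, pandas 2.3.3 and scipy 1.17.1, and the ratios were tested on simulated maps with planted values. Shares of the long pairs in the main results carry 95% Wilson intervals, and single rectangles exact Poisson intervals of the raw count.

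Regions named are the 5 highest and 5 lowest pairs by long-long interaction among those with at least 100 di-tags, the 3 highest and 3 lowest by its ratio to long-run interaction, the longest run, the runs with most short TADs and the median pair, and the highest 4 run-run places were added later. The members and lists were chosen with earlier results of these data known. Alternatives covered normalisation, expected value, bins, distances, lengths and arms. No gene is named, since an annotation of release 5 was not used here.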

Additional observations from a re-analysis of the deposited data

How the results depend on the processing

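The ratio of long-long interaction to adjoining long TADs stayed at 0.553 to 0.733 under all 19 alternatives, the run-run interaction at 1.09 to 1.45 and its ratio to the long TAD further out at 1.07 to 1.25 under all 17. The side of 1 was less firm. The long-long median of 0.957 became 1.09 with expected values from bin pairs in different TADs, 1.02 without bins of low total, 1.17 with long TADs of at least 120 kb and 1.09 with short TADs of under 50 kb, and the share above 1 became 56.1% and 56.8% with those expected values and with long TADs of at least 120 kb. For runs of up to 50 kb it became 1.02 on raw counts, 1.00 after iterative correction and 1.11 with expected values from different TADs. Long-run interaction moved to 0.829, 0.852 and 0.962 under these 3 in the same order, to 0.633 with medians over bin pairs and to 0.699 without the outermost bins of TADs. The ratio of long-long to long-run became 0.843 after iterative correction and 1.01 without the outermost bins, and that of long-run to adjoining long TADs 0.811 and 0.655 under the same, and 0.792 with short TADs of under 50 kb. Interaction within long TADs became 1.91 with expected values from different TADs and 1.33 with medians. Within runs it became 1.17 on raw counts, 1.20 after iterative correction, 1.24 with expected values from different TADs, 0.978 with medians, 0.934 without the outermost bins (n = 55) and 1.14 with short TADs of under 50 kb. The first and the third long TADs met with 1.01 on raw counts, 1.05 without bins of low total, 0.543 at up to 300 kb (n = 19), 1.04 and 0.777 with long TADs of at least 120 and 80 kb, 1.06 with short TADs of under 50 kb and 1.02 without 3L. The cause was not tested. Leaving out pairs within 2 Mb of the proximal end, weighting adjoining pairs equally, and the alternatives for values within TADs, for the run-run ratio and for the first with the third long TAD were chosen after seeing the data. No paired analysis was possible because the deposited maps combine the replicates. Depth limits the run-run rectangles most.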
